A study of Mus musculus with 6 samples.

Results

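The 6 Iroquois genes, Irx1 to Irx6, were followed in fully grown mouse oocytes that lacked Ring1 and, in one group, also Rnf2. They were taken by symbol from a table of 24028 genes, and all 6 had a row. The oocytes were at the germinal vesicle stage, arrested before meiotic maturation. Control oocytes were Ring1 -/-; Rnf2 f/f, and double-mutant (dKO) oocytes were Ring1 -/-; Rnf2 f/f; Zp3-cre, on a mixed FVB, 129/Sv and C57BL/6J background in both. Each group had 3 libraries, each from 15 pooled oocytes of 1 female aged about 3 months. Ring1 was therefore absent from controls as well, and the Zp3 promoter drives Cre in growing oocytes and not in the follicle cells around them. Loss of Rnf2 and presence of the Cre transgene go together in this design and cannot be told apart.

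Iroquois proteins are transcription factors of the TALE class of homeodomain proteins, named after a loop extended by extra amino acids inside the homeodomain. They are known for dividing the neural tube, heart, limb and retina into territories. Mammals carry them in paired genomic clusters: Irx1, Irx2 and Irx4 lie together on mouse chromosome 13, and Irx3, Irx5 and Irx6 on chromosome 8. Ring1 and Rnf2 encode the ubiquitin ligases at the core of Polycomb repressive complex 1, which represses developmental regulators of this kind in many cell types. In the mouse ovary Irx3 and Irx5 are known from the somatic cells around early oocytes, which does not exclude the oocytes themselves.

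The genes were chosen by their family, with their measured FPKM in dKO and control libraries already in view. Their values in that contrast are therefore given as a description, with no p-value. Irx1 and Irx2 passed the filter on low values and count among the genes fitted, and p-values are given for other genes only.

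Promoter sequences of 3 of the 6 genes were held by the RefSeq promoter table of build GRCm38.p6. They are shown because they belong to a gene that was high in dKO oocytes (Irx2), its low neighbour in the same cluster (Irx4) and a gene of the other cluster (Irx3). Each is the 250 bases before the annotated start, 5′ to 3′ on the strand of the gene, with CG dinucleotides in capitals. They lie at chr13:72628570-72628819 (plus strand) for Irx2, chr13:73260247-73260496 (plus strand) for Irx4 and chr8:91801655-91801904 (minus strand) for Irx3.
Irx2: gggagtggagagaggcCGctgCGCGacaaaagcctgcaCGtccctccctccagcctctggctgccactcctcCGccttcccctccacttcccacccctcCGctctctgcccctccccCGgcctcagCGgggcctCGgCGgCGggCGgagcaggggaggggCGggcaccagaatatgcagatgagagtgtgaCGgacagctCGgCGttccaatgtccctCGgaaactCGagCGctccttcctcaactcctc
Irx4: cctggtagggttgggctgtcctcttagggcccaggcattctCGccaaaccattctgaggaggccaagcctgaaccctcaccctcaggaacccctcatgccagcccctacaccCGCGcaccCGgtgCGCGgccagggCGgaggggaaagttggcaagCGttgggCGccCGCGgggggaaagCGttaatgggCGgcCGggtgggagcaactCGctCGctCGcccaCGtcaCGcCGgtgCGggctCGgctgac
Irx3: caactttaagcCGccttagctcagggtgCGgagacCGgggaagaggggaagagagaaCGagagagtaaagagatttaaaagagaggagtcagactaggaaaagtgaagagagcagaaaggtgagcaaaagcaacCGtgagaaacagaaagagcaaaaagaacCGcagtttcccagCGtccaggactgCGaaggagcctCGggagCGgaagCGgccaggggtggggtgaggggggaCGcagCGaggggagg

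The Irx2 promoter held 19 CG dinucleotides, the Irx4 promoter 22 and the Irx3 promoter 13, against a median of 6 over 32807 promoters of the same length. At least as many as in Irx2 were found in 19.7% of promoters, as in Irx4 in 14.8% and as in Irx3 in 31.5%. The content of G and C was 68.4% for Irx2, 68.8% for Irx4 and 56.0% for Irx3, and the median promoter had 52.4%. A relation between CG count and transcript level was not tested. Matches to CACGTG (an E-box), TCCCGC (the core of an E2F site) and TATAAA (the TATA box) were searched on both strands, with overlapping matches counted. None of these letters occurred in the 3 windows, while 6.02%, 16.9% and 12.4% of all promoters held them. Which start site oocytes use was not measured.

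**Figure D1:**
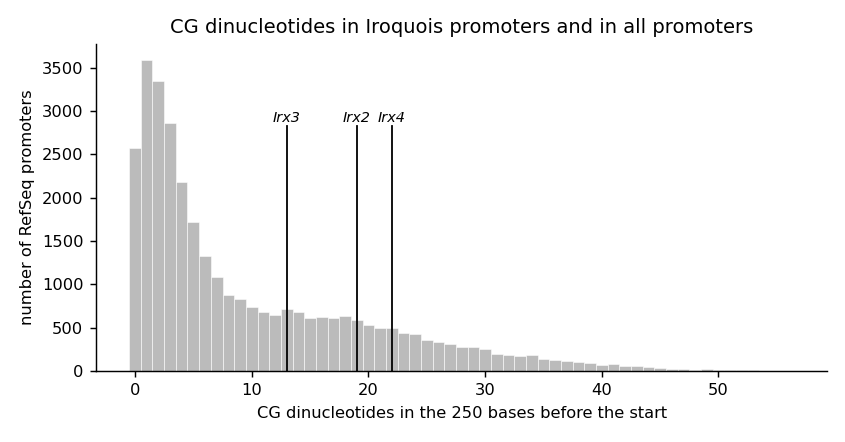
Histogram of the number of RefSeq promoters (vertical axis) by the number of CG dinucleotides in the 250 bases before the start (horizontal axis); vertical lines mark the Iroquois promoters in the table. Irx3 (13), Irx2 (19) and Irx4 (22) all lie to the right of the median of 6.

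Values are given as FPKM (fragments scaled for transcript length and library size), so levels of different genes can be set side by side. Rnf2, the targeted gene, stood at 53.7, 46.8 and 48.2 FPKM in the control libraries, and at 14.8, 8.44 and 5.31 FPKM in dKO replicates 1 to 3. With control replicate 1 as the unit, the depth that low values imply was 0.903 for control replicate 2, 1.02 for control replicate 3, and 0.661, 0.805 and 1.08 for dKO replicates 1 to 3. All 15 oocyte markers were detected, with summed levels of 10107 to 10699 FPKM in the control libraries and 7456 to 8647 FPKM in the dKO libraries. Of the 15, 4 fell (Kit, Mos, Ooep and Bmp15) and 1 rose (Dppa3; limma, Benjamini-Hochberg adjusted; at an unadjusted p under 0.05 these were 9 and 1), and each of these lost its call when any 1 control was left out (limma adjusted p at most 0.184). Of all 11334 genes tested, 14.0% rose and 7.04% fell in dKO oocytes (limma, Benjamini-Hochberg adjusted). These are 1587 and 798 genes, and after quantile normalization 1285 and 1068 were called. Fewer cells of a type and less RNA per cell cannot be told apart in such pooled samples.

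A pair of genes in the chromosome 13 cluster held nearly all Iroquois RNA of dKO oocytes. Irx1, a regulator of heart, lung and limb development, and Irx2, which is often expressed beside it, averaged 28.2 ± 11.1 and 13.6 ± 4.37 FPKM in the dKO libraries (SD, n = 3). Their control means were 0.141 ± 0.0227 and 0.0288 ± 0.0135 FPKM (SD, n = 3). The other 4 members stayed under 1 FPKM on average in both groups, among them Irx4, the third gene of the same cluster. All 6 had a higher mean in dKO oocytes, and in 4 of them (Irx1, Irx2, Irx3 and Irx6) no dKO value overlapped a control value. For Irx6 this rests on controls listed at 0 and a lowest dKO value of 0.00316 FPKM. Over the 20310 genes above 0 in any library, 22.3% were non-overlapping in this direction, and among the 9829 with a control mean under 1 FPKM 29.1% were. The median log2 difference of the 6 members was 0.51, and that of the 20310 genes 0.029. How many of all genes had a higher mean in dKO oocytes was not counted.

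**Figure D2:**
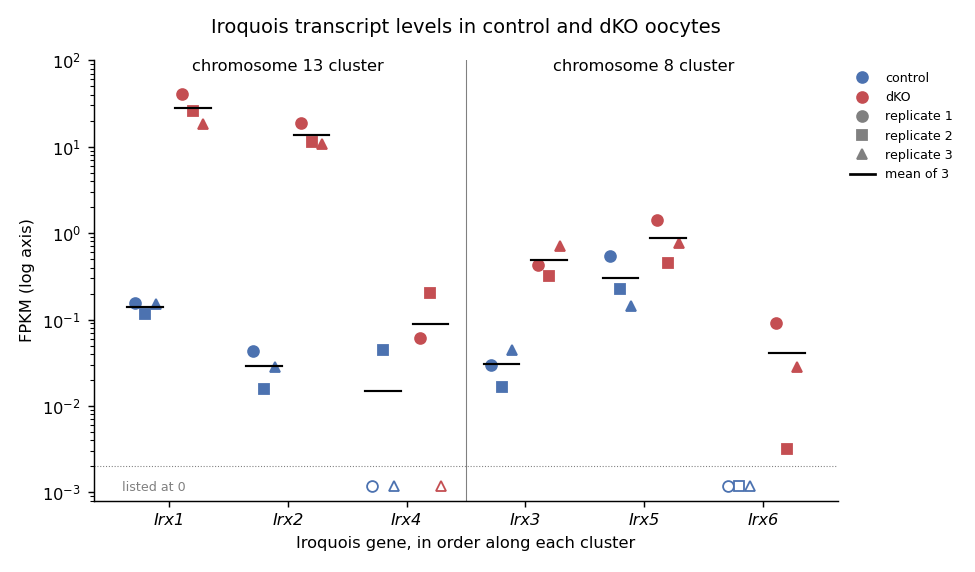
FPKM (log axis) of each Iroquois gene in every library, in order along each cluster; colours mark the groups, symbols the replicate, black bars the mean of 3, and open symbols under the dotted line are values listed at 0. Irx1 and Irx2 lie between 10.6 and 40.3 FPKM in the dKO libraries and under 0.2 FPKM in controls, while Irx4 stays under 0.21 FPKM in every library.

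Irx1 stood at 0.156, 0.115 and 0.153 FPKM in control replicates 1 to 3, and at 40.3, 25.7 and 18.4 FPKM in dKO replicates 1 to 3. Every dKO library was above every control, and the lowest dKO value was 118 times the highest control value. The mean was 199 times that of controls, a difference of 28.0 FPKM or 4.61 on the log2(FPKM + 1) scale, which understates changes of low genes. Within the 3 flow-cell lanes, each of which held 1 library of each group, the log2 difference of Irx1 was 5.16, 4.58 and 4.08. By the size of this difference Irx1 came 8th of the 11334 tested genes. Its level was exceeded by 55.4% to 58.3% of all genes in controls and by 6.24% to 13.01% in dKO libraries.

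Irx2 stood at 0.0427, 0.0158 and 0.0279 FPKM in the control libraries, and at 18.6, 11.5 and 10.6 FPKM in dKO replicates 1 to 3. The groups were again far apart, with the lowest dKO value 249 times the highest control value. The mean was 471 times that of controls, and the log2 difference was 3.78, with 4.23, 3.62 and 3.50 within lanes. It came 25th by that difference. In dKO libraries 13.3% to 21.0% of genes stood above Irx2, against 64.1% to 68.1% in controls.

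Irx1 and Irx2 varied together among the dKO libraries. Both were highest in dKO replicate 1, the library with the lowest relative depth (0.661) and the most Rnf2 RNA (14.8 FPKM), and lowest in dKO replicate 3, with a relative depth of 1.08 and the least Rnf2 RNA (5.31 FPKM). The part of depth or of remaining Rnf2 in this was not tested. The coefficient of variation over dKO libraries was 39.5% for Irx1 and 32.2% for Irx2. Irx1 exceeded Irx2 in all 3 dKO libraries, by 2.17, 2.24 and 1.73 times, although the lowest Irx1 value (18.4 FPKM) lay just under the highest Irx2 value (18.6 FPKM). In controls the ratio was 3.65, 7.29 and 5.47, from values near 0.

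Irx4, known as a factor restricted to the heart ventricles, was listed at 0 in controls 1 and 3 and at 0.0446 FPKM in control 2. In dKO replicates 1 to 3 it stood at 0.0609, 0.204 and 0 FPKM. The groups overlapped, and the log2 difference of 0.097 rests mostly on dKO replicate 2, without which it was 0.022. In dKO oocytes Irx4 therefore lay at 0.0883 ± 0.105 FPKM (SD, n = 3), beside 28.2 and 13.6 FPKM for its cluster neighbours Irx1 and Irx2. A value of exactly 0 in such a table can also be a failed estimate.

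On chromosome 8, Irx3, which marks neural tube progenitors and the ventricular conduction system, stood at 0.02996, 0.0166 and 0.0441 FPKM in the control libraries, and at 0.431, 0.317 and 0.706 FPKM in the dKO libraries. All dKO values were above all control values, by at least 7.18 times. The mean was 16.0 times that of controls, and the difference was 0.454 FPKM or 0.52 on the log2(FPKM + 1) scale. Unlike Irx1 and Irx2, Irx3 was highest in dKO replicate 3 and lowest in dKO replicate 2. In dKO libraries 49.8% to 58.4% of genes still stood above it.

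Irx5, which acts with Irx3 in the heart and in retinal bipolar cells, stood at 0.541, 0.227 and 0.143 FPKM in the control libraries, and at 1.42, 0.450 and 0.776 FPKM in the dKO libraries. The groups overlapped, since dKO replicate 2 was below control replicate 1. The means were 0.304 ± 0.210 and 0.881 ± 0.492 FPKM (SD, n = 3), a ratio of 2.90 and a log2 difference of 0.51. It was 0.31 without dKO replicate 1, which had the highest value. Within lanes the difference was 0.65, 0.24 and 0.64, higher in dKO oocytes in 3 of 3.

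Irx6, a retinal factor and the last gene of that cluster, was listed at 0 in all controls. It stood at 0.0923, 0.00316 and 0.0282 FPKM in dKO replicates 1 to 3, and its log2 difference was 0.057. The dKO values were above those of controls only by amounts under 0.1 FPKM. Without dKO replicate 1 the difference was 0.022.

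The levels of the 6 genes were ordered differently in the groups. In controls Irx5 was highest on average, followed by Irx1, Irx3, Irx2, Irx4 and Irx6. Of these neighbours only Irx1 and Irx3 had ranges that did not overlap. In dKO oocytes the order was Irx1, Irx2, Irx5, Irx3, Irx4 and Irx6. There the ranges of Irx2 and Irx5 did not overlap, nor did those of Irx3 and Irx4, whereas those of Irx1 and Irx2, Irx5 and Irx3, and Irx4 and Irx6 did. Irx1 and Irx2 together made up 25.8% to 49.1% of the summed Iroquois FPKM in the control libraries and 95.1% to 97.4% in dKO oocytes. The family summed to between 0.368 and 0.770 FPKM in controls and to between 30.6 and 60.9 FPKM in dKO libraries. Per cluster, the chromosome 13 genes summed to 0.175 to 0.199 FPKM in the control libraries and 29.1 to 58.9 FPKM in dKO libraries, and the chromosome 8 genes to 0.187 to 0.571 and 0.769 to 1.94 FPKM.

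The precision of the low values was read from their spacing. Multiplied by relative depth, the Irx1 values of the 6 libraries were whole multiples of one step, to within 0.03 of a step or a similar relative error. The smallest whole numbers in that ratio were 9, 6 and 9 in controls and 1539, 1196 and 1154 in dKO replicates 1 to 3. For Irx2 they were 12, 4 and 8 against 3452, 2591 and 3238, and for Irx5 148, 56 and 40 against 256, 99 and 230. For Irx6 they were 0, 0 and 0 against 24, 1 and 12. For Irx4 they were 0, 12 and 0 against 12, 49 and 0. Apart from the zeros, Irx4 rests on a single ratio of 4.08. Multipliers up to 60 would find such numbers whatever that ratio, so no count is read for Irx4. If each value is a whole number of fragments, the fragments counted are these numbers or a common multiple of them, before any correction for depth. That condition was not tested. With the depth-scaled value of control replicate 2 as the unit, Irx2 stood at 863, 647.75 and 809.5 in dKO replicates 1 to 3. If fragments were counted in parts, the true counts can also be lower than the numbers listed, in controls as well. No such step was found for Irx3, whose values were 2.003, 1 and 3.006 times the lowest in controls and 19.0, 17.0 and 51.1 times in dKO replicates 1 to 3. Amplified RNA without molecular identifiers gives fragments that are not independent molecules, so no interval is given.

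Genes along the clusters were read in the same way. The 10 genes with a row on each side of each cluster, and those between its members, made 44 neighbours by their order in the RefSeq gene table (GRCm38.p6). Of these 40 were above 0 in any library and 22 were tested, of which 4 rose and 0 fell (limma, Benjamini-Hochberg adjusted; at an unadjusted p under 0.05 these were 4 and 1). The shares over all tested genes were 14.0% and 7.04%. Among the neighbours that rose, Ube2ql1 and Sall1 passed the filter only through their dKO values. The median log2 change of the tested neighbours was 0.011, against -0.019 for all tested genes.

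Beside Irx1 the nearest genes with a row were 8030423J24Rik, a long noncoding RNA gene listed at 0 in every library, and Adamts16, a metalloprotease gene with at most 0.0102 FPKM in any library. Between Irx1, Irx2 and Irx4 lie the noncoding genes Gm20554, D730050B12Rik and 4930555K05Rik, none of which passed the filter. Gm20554, between Irx1 and Irx2, stood at 0, 0.0655 and 0 FPKM in the control libraries, and at 0.0994, 0.245 and 0.673 FPKM in dKO replicates 1 to 3, all above the controls. D730050B12Rik, between Irx2 and Irx4, stood at 0, 0.0934 and 0.0828 FPKM in the control libraries, and at 0.766, 0.629 and 0.0779 FPKM in dKO replicates 1 to 3, of which the last lay within the range of controls. Just past Irx4 lie Ndufs6, a subunit of respiratory complex I, at 11.96 ± 1.86 and 11.2 ± 1.65 FPKM in control and dKO oocytes, and Mrpl36, a mitochondrial ribosomal protein gene, at 7.35 ± 0.674 and 12.2 ± 0.492 FPKM (SD, n = 3). Mrpl36 rose by 0.66 ± 0.17 (SE; limma adjusted p = 0.0262), and was not past the threshold when any 1 control was left out (limma adjusted p at most 0.130). Exons of Ndufs6 and Mrpl36 overlap on opposite strands, so their reads may not be separated. Ube2ql1, a ubiquitin-conjugating enzyme-like gene 8 genes before Irx1, rose from 0.239 ± 0.130 to 4.48 ± 0.857 FPKM (SD, n = 3; log2 change 2.14 ± 0.20 SE; limma adjusted p = 0.000133). It was under 1 FPKM in every control, so it passed the filter only through its dKO values.

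On chromosome 8, Fto and Rpgrip1l precede Irx3. Fto, an RNA demethylase gene whose introns hold enhancers of Irx3, stood at 1.55, 2.24 and 1.91 FPKM in the control libraries, and at 0.682, 1.07 and 1.59 FPKM in the dKO libraries (log2 change -0.47 ± 0.21 SE; limma adjusted p = 0.152). Rpgrip1l, a ciliary gene, stood at 12.99 ± 1.19 and 11.6 ± 3.47 FPKM (SD, n = 3; limma adjusted p = 0.591). Crnde, a long noncoding RNA gene between Irx3 and Irx5, stood at 1.204 ± 0.239 and 1.31 ± 0.239 FPKM in control and dKO oocytes (SD, n = 3; limma adjusted p = 0.809). Past Irx6 lie the gelatinase gene Mmp2, at 14.3 ± 1.29 and 13.3 ± 5.55 FPKM, and the lipid enzyme gene Lpcat2, at 2.92 ± 0.555 and 2.47 ± 0.980 FPKM (SD, n = 3; limma adjusted p = 0.709 and 0.5998). The 2 neighbours that rose there were Sall1 and Tox3, adjoining genes before the cluster. Sall1, a zinc finger repressor of kidney and limb development, was listed at 0 in all controls and stood at 1.95, 2.18 and 1.21 FPKM in the dKO libraries (limma adjusted p = 0.000679). Sall1 thus passed the filter only through its dKO values. Tox3, an HMG-box gene, rose from 12.6 ± 3.21 to 33.4 ± 3.05 FPKM (SD, n = 3; log2 change 1.36 ± 0.20 SE; limma adjusted p = 0.00148).

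**Figure D3:**
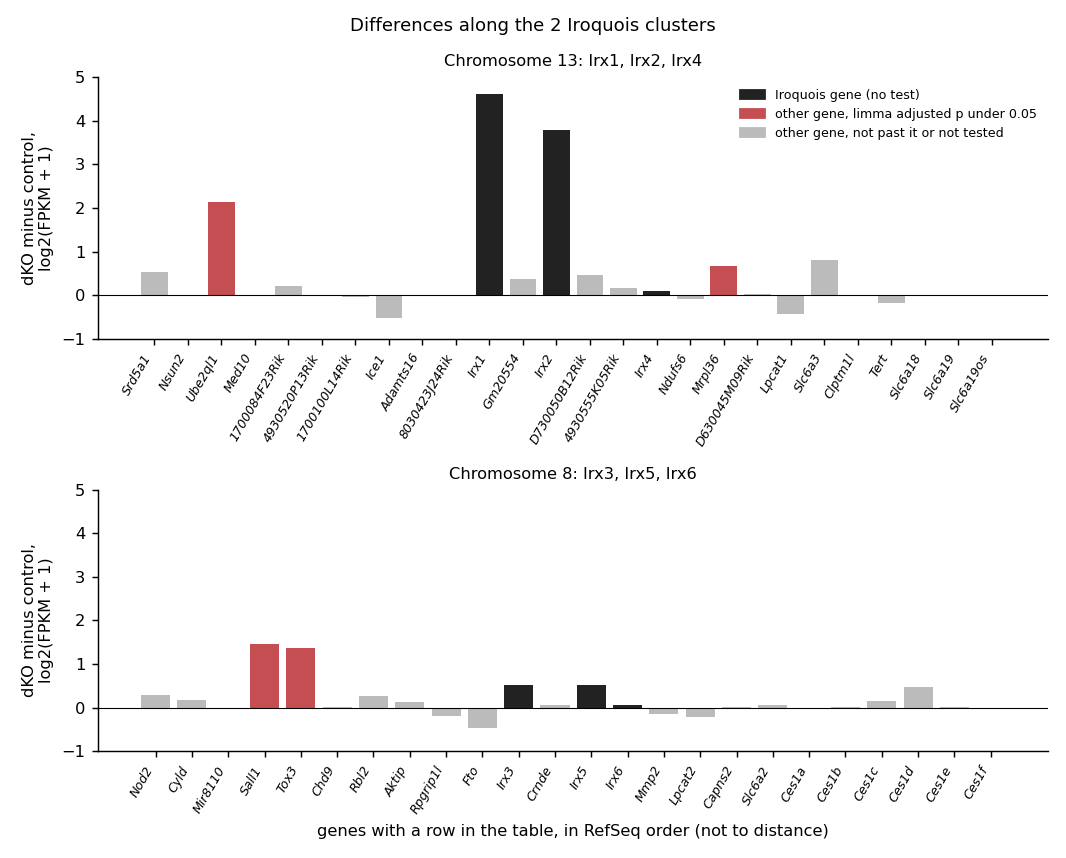
Difference between dKO and control means on the log2(FPKM + 1) scale (vertical axis) for the Iroquois genes and their neighbours, in gene order and not to distance (horizontal axis); black bars are Iroquois genes (no test), red bars other genes past the limma threshold. Irx1 (4.61) and Irx2 (3.78) stand above all other genes drawn, and Irx4 (0.097) beside them is near 0.

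The other TALE homeobox genes, the closest relatives of the Iroquois genes by homeodomain, ranged in mean control level from 0.00693 FPKM (Meis3) to 120 FPKM (Meis2). All 11 listed were above 0 in some library and 8 were tested, of which 2 rose and 0 fell (limma, Benjamini-Hochberg adjusted; at an unadjusted p under 0.05 these were 2 and 0). The background was 14.0% rising and 7.04% falling, and the filter favours genes that are silent in controls and high in dKO oocytes. The median log2 change of the 8 was 0.21. This list was chosen with earlier results of these data known, so nothing is read from its share. Meis2 stood at 120 ± 7.56 FPKM in the control libraries and 109 ± 18.3 FPKM in the dKO libraries (SD, n = 3; limma adjusted p = 0.560), more than any Iroquois gene in either group. Pbx2 and Tgif2 stood at 14.4 ± 2.01 and 10.5 ± 1.72 FPKM in controls, while no Iroquois gene exceeded 0.541 FPKM in any control.

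Meis1 and Pbx3, which encode DNA-binding partners of Hox proteins, were the 2 that rose. Of these, Meis1 was under 1 FPKM in every control and passed the filter only through its dKO values. Meis1 went from 0.421 ± 0.294 to 2.45 ± 0.971 FPKM and Pbx3 from 2.23 ± 0.488 to 5.22 ± 1.22 FPKM (SD, n = 3), with log2 changes of 1.27 ± 0.25 and 0.94 ± 0.22 (SE; limma adjusted p = 0.00767 and 0.0184). With control replicate 1 or 3 left out, Pbx3 lost its call (limma adjusted p at most 0.0871), and both lost it after quantile normalization (0.0533 and 0.0837). Mkx, the TALE gene most often grouped with the Iroquois genes, stayed under 0.08 FPKM in all libraries.

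**Figure D4:**
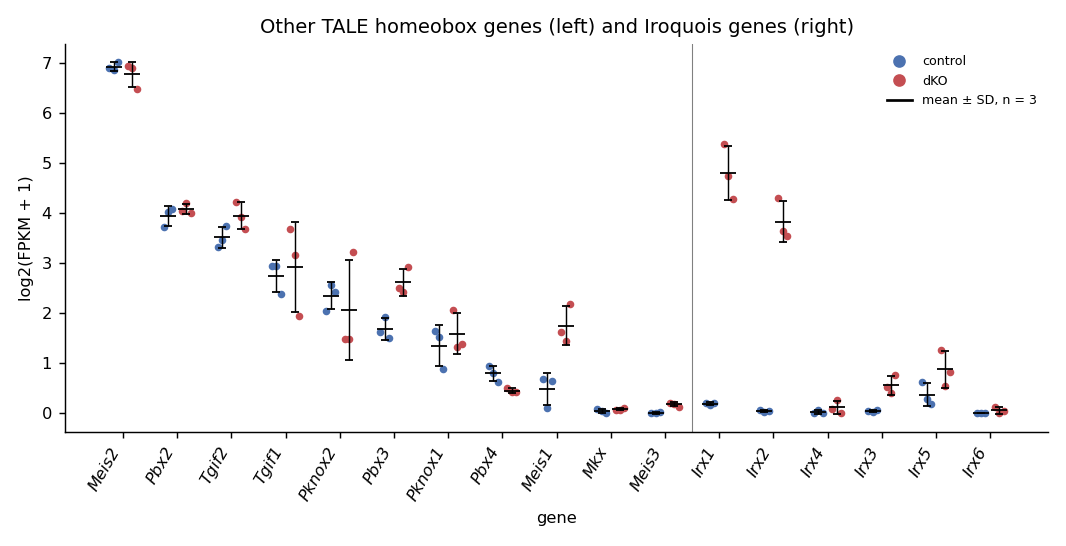
Level as log2(FPKM + 1) (vertical axis) of each other TALE homeobox gene and each Iroquois gene (horizontal axis) in control and dKO libraries; points are libraries and black marks the mean ± SD of 3. Irx1 and Irx2 move from near 0 in controls to levels of 10.6 FPKM or more in dKO oocytes, whereas the abundant TALE genes lie at similar heights in both groups.

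Genes that act with Iroquois factors in the neural tube were followed as a list of 20, which comprised regulators of progenitor domains, proneural factors and the signals Shh and Wnt3a. Of these 19 were above 0 in any library and 4 were tested, of which 3 rose and 0 fell (limma, Benjamini-Hochberg adjusted; at an unadjusted p under 0.05 these were 4 and 0), against 14.0% and 7.04% of all tested genes. The median log2 change of the 19 was 0.64, against 0.029 over all 20310 genes. As the list was chosen with earlier results of these data known, its excess over the background is not independent of them. The progenitor gene Pax6 went from 0.423 ± 0.0647 to 17.1 ± 1.89 FPKM and the forebrain gene Fezf2 from 0.166 ± 0.0544 to 7.55 ± 1.501 FPKM (SD, n = 3). Their log2 changes were 3.66 and 2.86 (limma adjusted p = 1.76e-05 and 3.88e-05). Both were under 1 FPKM in every control, so they passed the filter only through their dKO values. Gbx2, a regulator of the midbrain-hindbrain boundary, was the third, at 36.4 ± 3.24 and 71.1 ± 27.2 FPKM, and lost its call with no filter and when dKO replicate 2 or any 1 control was left out (limma adjusted p at most 0.121). Shh stood at 0.684 ± 0.394 and 2.63 ± 1.76 FPKM (SD, n = 3; limma adjusted p = 0.0533). With no filter 7 of the 19 rose, Gbx2 not among them, against 2006 of all 20310 genes.

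Of 18 genes linked with Iroquois factors in the heart and limb, all were above 0 in some library and 10 were tested, of which 7 rose and 0 fell (limma, Benjamini-Hochberg adjusted; at an unadjusted p under 0.05 these were 8 and 0), against 14.0% and 7.04% of all tested genes. The median log2 change of all 18 was 0.33. The filter favours genes that are high only in dKO oocytes in this list as well. It too was chosen with earlier results of these data known, so its excess over the background is not independent of them. The limb gene Hoxd13 went from 2.04 ± 0.390 to 31.4 ± 2.78 FPKM, the hedgehog mediator Gli3 from 11.98 ± 8.39 to 44.2 ± 5.99 FPKM and the chemokine receptor gene Cxcr4 from 1.53 ± 0.265 to 6.63 ± 3.26 FPKM (SD, n = 3; log2 changes 3.42, 1.97 and 1.495; limma adjusted p = 1.76e-05, 0.00581 and 0.0130). Cxcr4 was not past the threshold with control replicate 2 left out or with no filter (limma adjusted p = 0.0509 and 0.0548). Kcnd2, a potassium channel gene that Irx5 represses in the heart, was listed at 0 in all controls and stood at most at 0.0276 FPKM in the dKO libraries. Gja5 and Gja1, connexin genes that Irx3 regulates in the conduction system, stood at 1.19 ± 0.979 and 0.220 ± 0.174 FPKM in the control libraries, and at 0.469 ± 0.0881 and 1.05 ± 0.146 FPKM in the dKO libraries (SD, n = 3), below the filter.

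**Figure D5:**
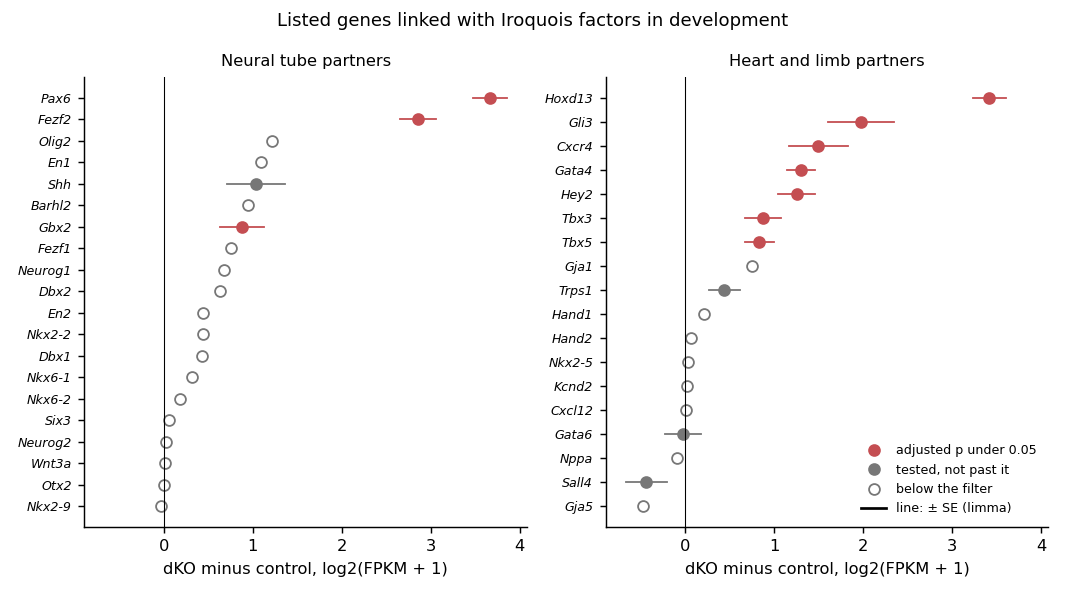
Difference between dKO and control means on the log2(FPKM + 1) scale (horizontal axis) for each listed gene of the neural tube and of heart and limb (vertical axis); red points passed the limma threshold, grey points were tested and did not, open points were below the filter, and lines are ± SE. Pax6 (3.66) and Hoxd13 (3.42) lie farthest to the right.

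Markers of follicle and stroma cells were also read. The 20 granulosa and cumulus markers summed to 170 to 199 FPKM in the control libraries and 211 to 254 FPKM in the dKO libraries, of which Serpine2 alone, abundant in both groups, held 136 to 165 and 141 to 185 FPKM. Of the 20, 9 were tested, of which 5 rose and 0 fell (limma, Benjamini-Hochberg adjusted; at an unadjusted p under 0.05 these were 5 and 1), against 14.0% and 7.04% of all tested genes, and 14 of the 20 had a higher mean in dKO oocytes. The follicle-stimulating hormone receptor gene Fshr stood at 0.158 ± 0.0183 and 10.6 ± 1.23 FPKM and the prostaglandin synthase gene Ptgs2 at 0.597 ± 0.115 and 15.9 ± 1.99 FPKM in control and dKO oocytes (SD, n = 3). The other 3 that rose, Inhba, Has2 and Nr5a2, lost their calls when control replicate 2 was left out (limma adjusted p = 0.0842, 0.0682 and 0.152). Fshr, Ptgs2, Inhba and Has2 were under 1 FPKM in every control and passed the filter only through their dKO values. The marker lists were also chosen with earlier results of these data known. The aromatase gene Cyp19a1 stood at 9.94 ± 2.04 and 5.78 ± 0.498 FPKM (SD, n = 3; limma adjusted p = 0.05004). Foxl2, a granulosa transcription factor gene, averaged 0.0596 and 0.347 FPKM and reached at most 0.586 FPKM, Amh and Amhr2 reached at most 1.03 and 0.0817 FPKM, and the cumulus gene Ptx3 was listed at 0 in every library. The 10 theca and stroma markers summed to 1.16 to 1.45 FPKM in the control libraries and 6.17 to 10.4 FPKM in the dKO libraries, with 8 of the 10 under 1 FPKM in every library. Nr2f2 held the largest part, at 0.521 ± 0.0214 and 4.64 ± 1.91 FPKM in control and dKO oocytes (SD, n = 3; limma adjusted p = 0.000969). It was the only 1 of the 10 tested, and passed the filter only through its dKO values. Of the 10, 8 had a higher mean in dKO oocytes. How many of all genes had a higher mean was not counted, so nothing is read from these counts in either marker list. The part of follicle or stroma cells in the Irx3 and Irx5 levels was not tested.

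The pattern of Irx1 and Irx2 over the 6 libraries was shared by many genes. Pearson's r of log2(FPKM + 1) with Irx1 was at least 0.95 for 848 of the other tested genes, and with Irx2 for 843. The 6 points of each such correlation fall into the 2 groups, so r mostly reflects the difference between them. The genes most like Irx1 were Bmp2 (r = 0.9999), the crystallin gene Crygb (0.9998) and the T-box gene Eomes (0.9997), and those most like Irx2 were the butyrophilin gene Btn1a1 (0.9999), Crygb (0.9997) and Eomes (0.9997). Eomes stood at 0.0279, 0.0412 and 0.0365 FPKM in the control libraries, and at 8.18, 5.70 and 4.90 FPKM in dKO replicates 1 to 3. It was picked by its likeness over these same libraries. Its shared order with Irx1 and Irx2 among dKO libraries comes with that choice and is no separate result. Bmp2 stood at 7.45, 5.83 and 4.42 FPKM in dKO replicates 1 to 3 and at most at 0.0188 FPKM in controls. Bmp2, Crygb, Eomes and Btn1a1 were under 1 FPKM in every control and passed the filter only through their dKO values.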

How the data were processed

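RNA of germinal vesicle oocytes was amplified with the Ovation v2 kit and sequenced on a HiSeq instrument, per the labels' protocols. The authors deposited a table of FPKM with a column for each library. The submitters' processing notes name TopHat2 2.0.11, Cufflinks 2.0.2 and the genome build mm9. What each tool did, which annotation was used and whether strand was used were not given in the sources used here. Gene order and promoters come from GRCm38.p6, so no coordinates of genes in the files' build are given. Exons of Irx3 and Irx6 overlap antisense genes (Irx3os and Gm45505), and those of Rnf2 overlap Trmt1l.

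Of 24525 rows, 497 repeated another and were removed. Testing was limited to genes that reached 1 FPKM in 3 or more libraries (11334, with Irx1 and Irx2 among them and the other 4 members below). The log2(FPKM + 1) values of the 6 libraries were fitted with limma 3.58.1 under R 4.3.3 (eBayes with trend, two-sided). A gene was called at an adjusted p (Benjamini-Hochberg, over all tested genes) under 0.05. The fit was tested on simulated data. Absolute depth is unknown. Relative depth is the commonest ratio between libraries of values under 0.1 FPKM.

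Same-numbered libraries shared a flow-cell lane, per the labels, so the number pairs them. Their deviations from the group means correlated at 0.147, 0.107 and 0.0637. The reported fit has no block. The index sequence differed between the groups and not within them, so its part cannot be told apart from genotype. The members and lists were chosen with earlier results of these data known, and listed genes that are not reported here were taken out of the lists and their counts. The text names all members, up to 3 rising and 3 falling genes of each list, the nearest and the called cluster neighbours, and the 3 genes most like each member that averaged 1 FPKM or more. Alternatives were other pseudocounts, filters, scalings, variance models, a replicate block and leaving out single libraries. Quantile normalization ran over all genes above 0 in any library. The counts of members that did not overlap were repeated without each library and under both scalings after the data were seen.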

Additional observations from a re-analysis of the deposited data

How the results depend on the processing

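All 6 Iroquois genes had a higher mean of log2 values in dKO oocytes under every alternative that could change it. These were the pseudocounts, the scalings and leaving out single libraries. The filters, the variance model and the replicate block do not enter these differences and left them the same by construction. The pseudocount moved the size: with 0.1 the log2 differences of Irx1 to Irx6 were 6.80, 6.69, 2.12, 0.59, 1.28 and 0.45, and with 0.5 those of Irx1, Irx2, Irx3 and Irx6 were 5.41, 4.69, 0.87 and 0.11. After quantile normalization Irx3 and Irx5 had 0.34 and 0.19. Removing each library in turn gave ranges of 4.32 to 4.86 (Irx1), 3.55 to 3.92 (Irx2), 0.41 to 0.60 (Irx3), 0.022 to 0.16 (Irx4), 0.31 to 0.68 (Irx5) and 0.022 to 0.084 (Irx6). Irx4 had 0.16 without dKO replicate 3. The members that did not overlap numbered 4 to 5, with 5 without control replicate 1, dKO replicate 2 or dKO replicate 3. With a library left out fewer values are compared, so any gene separates more easily. The share over all genes was not counted for these settings, so nothing is read from the 5.

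Over all genes 1587 rose and 798 fell. With a replicate block for the paired lanes 1681 rose and 887 fell, and of the counts for neighbours, TALE, neural tube and heart and limb genes only one changed, as 4 neural tube genes rose. The oocyte marker Bmp15 lost its call there (limma adjusted p = 0.0740). Removing each library gave 1087 to 1869 rises and 231 to 1465 falls. The falls were 258, 262 and 231 without control replicates 1, 2 and 3 and 1465 without dKO replicate 2. With the filter at 5 FPKM 655 of 7418 tested genes rose, and 2 cluster neighbours, 3 heart and limb genes and 0 TALE genes did. With no filter 2006 of 20310 genes rose, 7 neural tube genes among them. After quantile normalization 0 TALE genes rose and 1 cluster neighbour fell. Rises were 66.5% of calls as deposited, 78.6% with no filter, 54.0% with the filter at 5 FPKM and 54.6% after quantile normalization. Removing each library gave 3 to 4 rising and 0 to 1 falling neighbours, 6 to 8 and 0 to 1 heart and limb genes, 1 to 2 and 0 to 1 TALE genes, and 2 to 4 rising neural tube genes. The single falls came without dKO replicate 3. The causes were not tested. With FPKM alone the depth behind low members is known at best up to a common multiple.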
